A study of Mus musculus with 4 samples.

Results

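This report describes 9 endothelial genes of blood coagulation, its inhibition and the dissolution of clots, *Vwf*, *F8*, *Thbd*, *Procr*, *Pros1*, *Tfpi*, *Plat*, *Plau* and *Anxa2*. They were taken from a list by gene symbol, and all 9 were found among the 46517 Ensembl gene identifiers of the count tables. The cells were blood endothelial cells (BECs) of ear dermis from adult female C57Bl/6 mice, sorted as CD31+, CD45- and Lyve1- into 384-well plates and sequenced by Smart-seq2, a full-length single-cell method without molecular identifiers. There were 2 replicates of 2 plates each, from pooled ears of 6 mice, and the labels name no treatment or genetic change. The labels give an age of 12 to 26 weeks. The study's methods give a younger range and name the mice as wild-type C57BL/6 J. The labels do not settle whether each replicate had its own mice, so the spread between replicates may be partly technical. The question was how these genes were distributed over artery-like, capillary-like and vein-like wells, with vessel identity set from other genes. Plates of a replicate share their mice, so values by plate are given as a description.

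Endothelium keeps blood fluid in an intact vessel and helps to seal a damaged one. It stores von Willebrand factor in Weibel-Palade bodies, from which it is released to capture platelets and to carry factor VIII. On its surface thrombomodulin and the endothelial protein C receptor turn thrombin towards the activation of protein C, for which protein S is a cofactor, and tissue factor pathway inhibitor blocks the first step of clotting. Tissue-type and urokinase-type plasminogen activators form plasmin, and annexin A2 is a surface receptor that brings plasminogen and its activator together.

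Promoter sequence is shown for *Procr*, *Tfpi* and *Pros1*. Among the 3 classes these 3 anticoagulant genes had their highest mean level in vein-like wells of both replicates, and a promoter was at hand for them. Of the 9 genes, 5 matched the RefSeq promoter table of build GRCm38.p6 (*Procr*, *Tfpi*, *F8*, *Pros1* and *Anxa2*), and *Vwf*, *Thbd*, *Plat* and *Plau* did not. Each stretch ends before the start of the gene in the GENCODE model and reads 5′ to 3′ on the strand of the gene. Capitals mark GGAA on either strand (GGAA or TTCC), the core that ETS factors, a family active in endothelium, are known to bind.
*Procr* (chr2:155750967-155751116, + strand): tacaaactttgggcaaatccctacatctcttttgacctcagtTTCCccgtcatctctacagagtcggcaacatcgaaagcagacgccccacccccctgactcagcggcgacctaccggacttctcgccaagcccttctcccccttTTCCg
*Tfpi* (chr2:84476776-84477009, - strand): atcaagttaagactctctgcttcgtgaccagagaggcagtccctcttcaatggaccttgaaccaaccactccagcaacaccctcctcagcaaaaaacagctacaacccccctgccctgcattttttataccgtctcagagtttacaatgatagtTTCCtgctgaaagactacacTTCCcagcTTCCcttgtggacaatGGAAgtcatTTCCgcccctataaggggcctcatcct
*Pros1* (chr16:62854057-62854306, + strand): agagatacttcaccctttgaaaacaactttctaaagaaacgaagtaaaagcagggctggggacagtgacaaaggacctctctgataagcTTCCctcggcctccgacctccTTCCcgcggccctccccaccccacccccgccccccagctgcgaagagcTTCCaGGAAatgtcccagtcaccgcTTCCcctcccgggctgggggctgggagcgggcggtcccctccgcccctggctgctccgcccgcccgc

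The *Procr* stretch of 150 bases held 2 matches, the *Tfpi* stretch of 234 bases held 5, and the *Pros1* stretch of 250 bases held 5. Among all 32851 promoter windows of 250 bases in the table, 93.5% held at least 1 match and the median was 3, so the matches do not set these promoters apart. CACCC on either strand (CACCC or GGGTG), the box that KLF factors are known to bind, occurred 1 time in *Procr*, 1 time in *Tfpi* and 3 times in *Pros1*, and 52.0% of all windows held it.

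Of 1536 wells, 701 were kept as BECs (338 of replicate 1 and 363 of replicate 2). Clustering on variable genes other than the coagulation and dissociation genes gave 40 artery-like wells (22 and 18 in replicates 1 and 2), 154 capillary-like wells (125 and 29) and 162 vein-like wells (94 and 68). The other 345 kept wells stayed without a vessel name. Summed over 12 markers, the artery list reached 5229 and 4716 CPM (reads of a gene scaled to a common total of reads on genes in each well) in artery-like wells and 796 to 2104 CPM in the other classes. The capillary list reached 18009 and 6307 CPM in capillary-like wells, though it was also at 10609 CPM in artery-like wells of replicate 1. The vein list reached 4595 and 4983 CPM in vein-like wells and 337 to 1435 CPM in the other classes. These lists also named the clusters, so a high sum in the class of the same name was partly set by the naming. *Pecam1*, which encodes CD31 and was part of the filter on wells, had a read in all kept wells. *Ptprc*, which encodes CD45 and was kept under 100 CPM by the filter, had a read in 1.18% and 1.38% of them. *Lyve1*, under the same limit, had a read in 3.85% and 38.3% of them, at means of 0.309 and 10.2 CPM. A list of 8 lymphatic markers summed to 65.2 and 420 CPM in capillary-like wells of replicates 1 and 2. It was at 53.5 to 92.8 CPM in the other classes and at 120 and 1396 CPM in kept wells without a vessel name. The vein-like wells were led by *Sele*, *Rcan1*, *Rgs16*, *Selp*, *Egr2*, *Il6*, *Rnd1*, *Tnfaip3* and *Nr4a1*, among them immediate early and inflammatory genes. A list of 18 genes known to be induced by tissue dissociation summed to 32541 and 34269 CPM there, against 6368 to 13407 CPM in the other classes. Median depth of kept wells was 142614.5 reads in replicate 1 and 92974 in replicate 2, and capillary-like wells of replicate 2 were the shallowest group with 44173.

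*Vwf*, the carrier of factor VIII and the tether of platelets (chr6:125546774-125686679, + strand, 56 merged exons, mm10), was highest in vein-like wells of the 3 classes. Its mean was 834 and 1013 CPM per well in replicates 1 and 2 of the vein-like wells (923 ± 127 CPM, SD, n = 2). In artery-like wells the means were 246 and 448 CPM, and in capillary-like wells they were 182 and 408 CPM. The 4 plates of the vein-like wells ran from 796 to 1069.8 CPM, above every plate of the artery-like wells (67.9 to 556 CPM) and of the capillary-like wells (175 to 464 CPM). Artery-like and capillary-like wells overlapped. In replicate 2, 1 artery-like well held 58.2% of the summed *Vwf* CPM of its group, and the mean without it was 198 CPM. Scaled by scran size factors in place of well totals, the capillary-like mean of replicate 2 was 662 CPM, still below the vein-like 1065 CPM. Kept wells without a vessel name (97 and 248) were at 552 and 1052 CPM, in replicate 2 above the vein-like mean.

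Summed reads per replicate and class, scaled by TMM (a trimmed mean that matches the bulk of genes between sums), gave *Vwf* 231 and 464 CPM in artery-like, 175 and 843 CPM in capillary-like and 828 and 945 CPM in vein-like sums. In these sums the capillary-like value of replicate 2 lay close to the vein-like ones, unlike the mean over wells. In the quasi-likelihood test of edgeR, blocked on replicate, the log2 difference of artery-like minus vein-like was -1.51 (SE 0.54, unadjusted p = 0.0106, adjusted p = 0.668). Capillary-like minus vein-like was -1.18 (SE 0.55, unadjusted p = 0.0446, adjusted p = 0.9997), and artery-like minus capillary-like was -0.33 (SE 0.53, adjusted p = 0.96). None of these passed the adjusted threshold of 0.05. Both differences from vein-like wells were below 0 in 14 of 14 alternative analyses with a test, but their size depended on the replicate. Capillary-like minus vein-like was -2.24 without replicate 2 and -0.23 without replicate 1. The sign of artery-like minus capillary-like changed in 5 of 14 alternatives. With wells kept up to 300 CPM of non-endothelial genes and clustered anew at resolution 0.8, it was 1.66. The classes were then other sets of wells, 55 and 109 artery-like, 154 and 29 capillary-like and 49 and 47 vein-like in replicates 1 and 2. Mean *Vwf* per well in these sets was at 645 and 1118 CPM in artery-like, 173 and 372 CPM in capillary-like and 903 and 1877 CPM in vein-like wells.

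Single wells gave vein-like wells the largest share in both replicates. At least 100 CPM of *Vwf* were present in 85.1% and 75% of vein-like wells of replicates 1 and 2, in 36.4% and 38.9% of artery-like wells and in 24% and 48.3% of capillary-like wells. A read of any kind was too common to tell classes apart, since *Vwf* had one in 83.2% of capillary-like wells of replicate 1 and also in 87.5% of its 8 mural wells, which had at least 300 CPM of *Pdgfrb* or *Kcnj8* and under 100 CPM of *Pecam1*. With each well thinned to 20000 reads, the share of vein-like wells with *Vwf* was 95.7% in replicate 1 (95% exact binomial interval 89.5 to 98.8), against 50.0% of artery-like (28.2 to 71.8) and 36.0% of capillary-like wells (27.6 to 45.1). In replicate 2 it was 81.8% (70.4 to 90.2), 55.6% (30.8 to 78.5) and 70.6% (44.0 to 89.7), and these intervals overlapped. Intervals cover counting error only. Thinning left out 12 of 29 capillary-like wells and 2 of 68 vein-like wells of replicate 2.

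The dissociation genes moved with the vein-like class, and their part in the *Vwf* result was not tested. A split of the vein-like wells at the median of these genes cannot test it. Its lower part still held 23707 and 21662 CPM of them in replicates 1 and 2, above every other class. In the vein-like wells at or below the median of these genes *Vwf* was at 903 and 1241 CPM in replicates 1 and 2. In those above the median it was at 765 and 785 CPM, lower in both replicates. With only the former wells in the vein-like sums, artery-like minus vein-like was -1.73 (SE 0.53, unadjusted p = 0.00596, adjusted p = 0.779 in edgeR). The 8 platelet markers, of interest because platelets also carry von Willebrand factor, summed to at most 11.8 CPM in any class, with 3 to 8 of them at 0. The part of platelet RNA in the *Vwf* values was not tested.

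**Figure D1:**
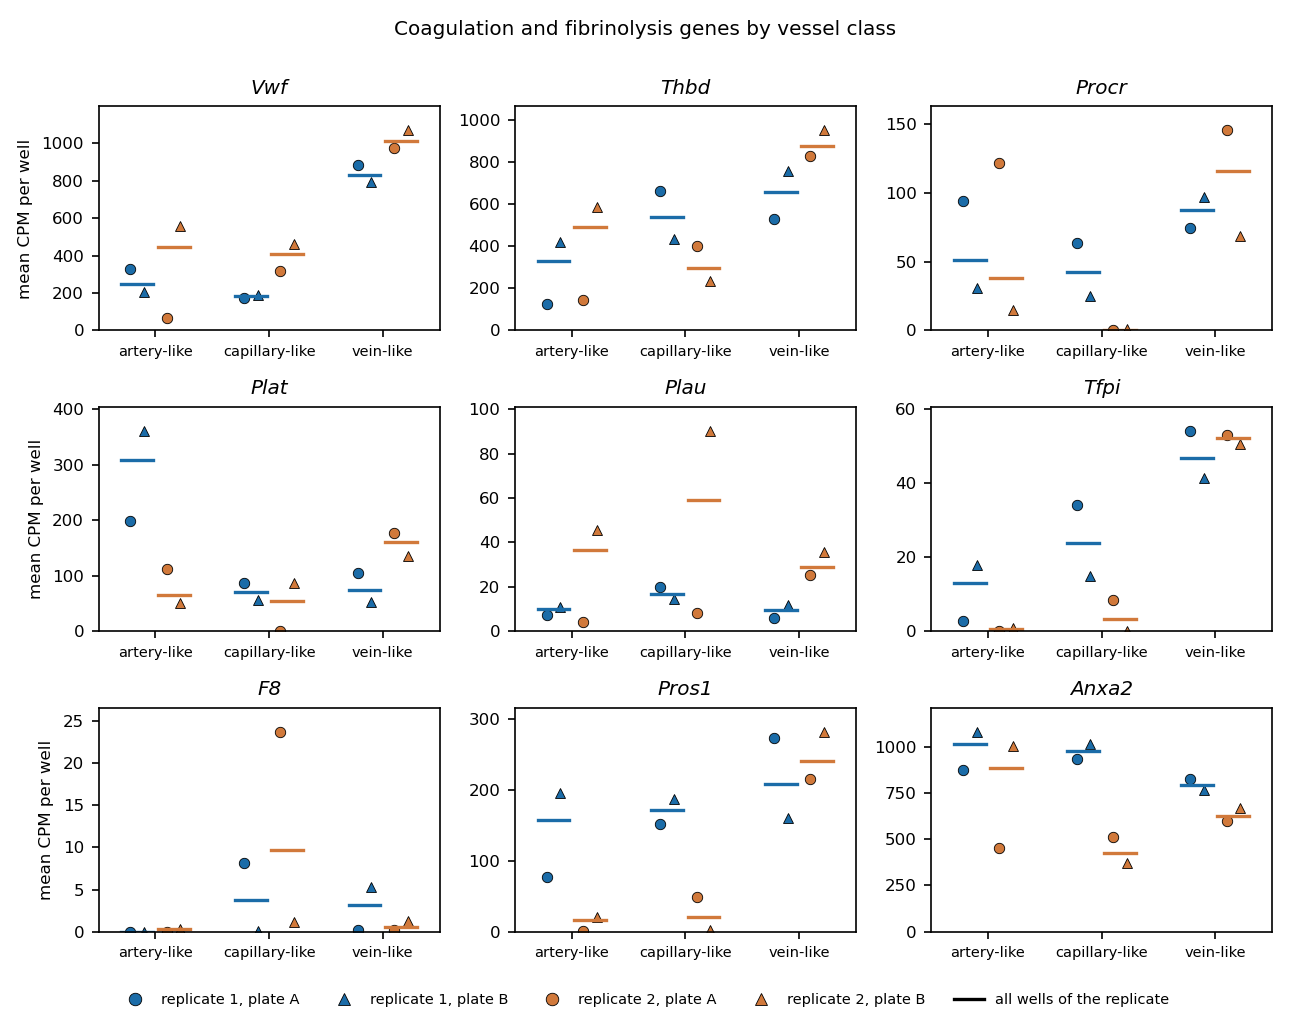
Mean CPM per well (vertical axis, from 0) of the 9 genes in artery-like, capillary-like and vein-like wells. Points are plates (circles A, triangles B), blue for replicate 1 and orange for replicate 2, and horizontal bars are all wells of a replicate. The vein-like plates of *Vwf* (796 to 1069.8 CPM) and *Tfpi* (41.3 to 54.1 CPM) lie above all plates of the other classes, while plates of *Plat* and *Anxa2* overlap between classes.

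*F8*, the cofactor that von Willebrand factor carries (chrX:75172715-75382615, - strand), was close to absent. Artery-like wells held 0 and 1 reads of it in replicates 1 and 2, capillary-like wells 51 and 2, and vein-like wells 55 and 9. A read was present in 0 of 22 artery-like wells of replicate 1, where a limit of 3 counts leaves room for 13.6% and the exact binomial interval for 15.4%, and in 2.40% to 6.90% of capillary-like and vein-like wells. Single wells made up most of this signal, 74.3% of the summed CPM in capillary-like and 82.3% in vein-like wells of replicate 1. No difference between classes passed the adjusted threshold in any analysis made here. Folds of *F8* rest on so few reads that they are given only where they changed sign under an alternative.

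*Thbd* encodes thrombomodulin, the thrombin receptor that starts protein C activation (chr2:148404466-148408188, - strand, 1 exon). It reached 660 and 876 CPM per well in vein-like wells of replicates 1 and 2 (768 ± 153 CPM, SD, n = 2). In artery-like wells it was at 328 and 489.9 CPM, and in capillary-like wells at 538 and 298 CPM. Without 1 well of 18 the artery-like mean of replicate 2 was 304 CPM. Vein-like wells were above artery-like wells in 4 of 4 plates and above capillary-like wells in 3 of 4, but the plate ranges overlapped (530.01 to 950.4, 126 to 588 and 236 to 663 CPM). On the sums, artery-like minus vein-like was -0.57 (SE 0.48, adjusted p = 0.847 in edgeR) and capillary-like minus vein-like was -0.33 (SE 0.48, adjusted p = 0.9997). Neither passed the threshold. The sums were at 383 and 567 CPM in artery-like, 518 and 583 CPM in capillary-like and 585 and 820 CPM in vein-like wells of replicates 1 and 2. The vein-like sum was the highest of each replicate, and artery-like minus vein-like was -0.61 without replicate 2 and -0.55 without replicate 1.

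*Thbd* was present at 100 CPM or more in 75.5% and 64.7% of vein-like wells of replicates 1 and 2. The shares were 59.2% and 31.0% in capillary-like and 50.0% and 27.8% in artery-like wells. The vein-like share was thus highest in both replicates. In vein-like wells of replicate 1 *Thbd* was higher where the dissociation genes were higher, 484 CPM at or below their median and 835 CPM above it. In replicate 2 the values were 883 and 869 CPM.

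*Procr* encodes the endothelial protein C receptor (chr2:155751117-155755471, + strand, 3 exons). It was at 87.4 and 116 CPM per well in vein-like wells of replicates 1 and 2, at 51.0 and 38.3 CPM in artery-like wells and at 42.4 and 0.434 CPM in capillary-like wells. The last value rested on 1 read in 29 wells. Single wells weighed heavily elsewhere too. Without the highest well of each group the means were 23.5 and 23.9 CPM in artery-like wells and 67.2 CPM in vein-like wells of replicate 2. All 4 vein-like plates (68.6 to 145 CPM) were above all 4 capillary-like plates (0 to 63.4 CPM), while artery-like plates (14.5 to 122 CPM) overlapped with both. Capillary-like minus vein-like was -2.89 on the log2 scale (SE 1.78, adjusted p = 0.9997 in edgeR), with -0.87 without replicate 2 and -7.18 without replicate 1. Artery-like minus vein-like was -1.25 (SE 1.49, adjusted p = 0.926). *Procr* was unevenly spread over wells. At least 100 CPM occurred in 26.6% and 13.2% of vein-like wells, 13.6% and 16.7% of artery-like wells and 8% and 0% of capillary-like wells. In vein-like wells at or below the median of the dissociation genes *Procr* was at 93.8 and 59.4 CPM in replicates 1 and 2, and above it at 81.1 and 172 CPM. Without the highest well of each of these 4 sets the means were 85.2 and 34.6 CPM at or below it and 51.9 and 75.2 CPM above it.

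*Pros1* encodes protein S, the cofactor of activated protein C (chr16:62854307-62929346, + strand, 16 merged exons). Its means of 208 and 240.4 CPM in vein-like wells of replicates 1 and 2 were close to each other. In artery-like wells they were 158 and 16.1 CPM, and in capillary-like wells 171 and 20.2 CPM. The classes stood near each other in replicate 1 and far apart in replicate 2 on this scale. Of the 20.2 CPM, 1 well held 87.2%, and the mean without it was 2.67 CPM. Scaled by scran size factors, however, the capillary-like mean of replicate 2 was 225 CPM, close to the 241 CPM of vein-like wells. Without its highest well the artery-like mean of replicate 2 was 9.97 CPM. On the sums, artery-like minus vein-like was -2.59 (SE 1.18, unadjusted p = 0.0392, adjusted p = 0.668 in edgeR), and it was -0.21 without replicate 2 and -3.66 without replicate 1. Capillary-like minus vein-like was -3.12 (SE 1.29, unadjusted p = 0.0249, adjusted p = 0.9997), and it was -0.22 without replicate 2 and -5.69 without replicate 1. The capillary-like sum of replicate 2 held 8 reads of *Pros1* and the artery-like sum 66. In vein-like wells at or below the median of the dissociation genes *Pros1* was at 211 and 303 CPM, and above it at 205 and 178 CPM.

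*Tfpi* encodes tissue factor pathway inhibitor, the Kunitz-type inhibitor of the first step of clotting (chr2:84432855-84476775, - strand, 12 merged exons). It was at 46.8 and 52.1 CPM per well in vein-like wells of replicates 1 and 2 (49.4 ± 3.75 CPM, SD, n = 2). It was at 13.1 and 0.574 CPM in artery-like wells and at 23.7 and 3.16 CPM in capillary-like wells. All vein-like plates (41.3 to 54.1 CPM) were above all artery-like plates (0 to 17.9 CPM) and all capillary-like plates (0 to 34.0 CPM). In replicate 2 the artery-like wells held 2 reads and the capillary-like wells 1 read, against 881 in vein-like wells. The order of the capillary-like wells of replicate 2 turned with the scale, since scran size factors made that 1 read a mean of 267 CPM, above the 51.6 CPM of vein-like wells. Without its highest well the artery-like mean of replicate 1 was 5.79 CPM. Artery-like minus vein-like was -4.74 on the log2 scale (SE 2.49, adjusted p = 0.674 in edgeR), with a leave-out range of -6.10 without replicate 1 to -1.91 without replicate 2. The DESeq2 Wald test on the same sums called this difference (-4.54, SE 1.49, adjusted p = 0.0463), beside 4.37% of all genes. It was the only call of any of the 9 genes in edgeR, DESeq2 or limma under the settings listed at the end.

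*Tfpi* occurred in few wells, at 100 CPM or more in 17% and 10.3% of vein-like wells of replicates 1 and 2, 4.55% and 0% of artery-like wells and 6.40% and 0% of capillary-like wells. In mural wells *Tfpi* was at 75.3 and 290.1 CPM, above vein-like wells, but 1 of the 8 mural wells of replicate 1 held 91.0% of the first value, and without it the mean was 7.78 CPM, below vein-like wells. The 10 mural markers, none of them at 0, summed to 1015 and 342 CPM in vein-like wells against 1549 and 695 CPM in artery-like and 1527 and 329.7 CPM in capillary-like wells. The part of mural RNA in the *Tfpi* values was not tested. In vein-like wells at or below the median of the dissociation genes *Tfpi* was at 67.2 and 51.1 CPM, and above it at 26.3 and 53.1 CPM.

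In vein-like wells *Tfpi* occurred more often beside *Pros1*, a pair singled out from all pairs of the 9 genes after the values had been seen. Of the 16 vein-like wells of replicate 1 with at least 100 CPM of *Tfpi*, 12 also had at least 100 CPM of *Pros1* (75%), against 41.0% of the vein-like wells without *Tfpi* at that level. In replicate 2 it was 5 of 7 wells (71.4%) against 26.2%. Depth differs between wells and was not separated from these shares, which are a description. *Vwf* and *Thbd*, by contrast, had no such relation in vein-like wells of replicate 1, where *Thbd* reached 100 CPM in 75% of wells with and 78.6% of wells without *Vwf*, though in replicate 2 the shares were 70.6% and 47.1%.

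**Figure D2:**
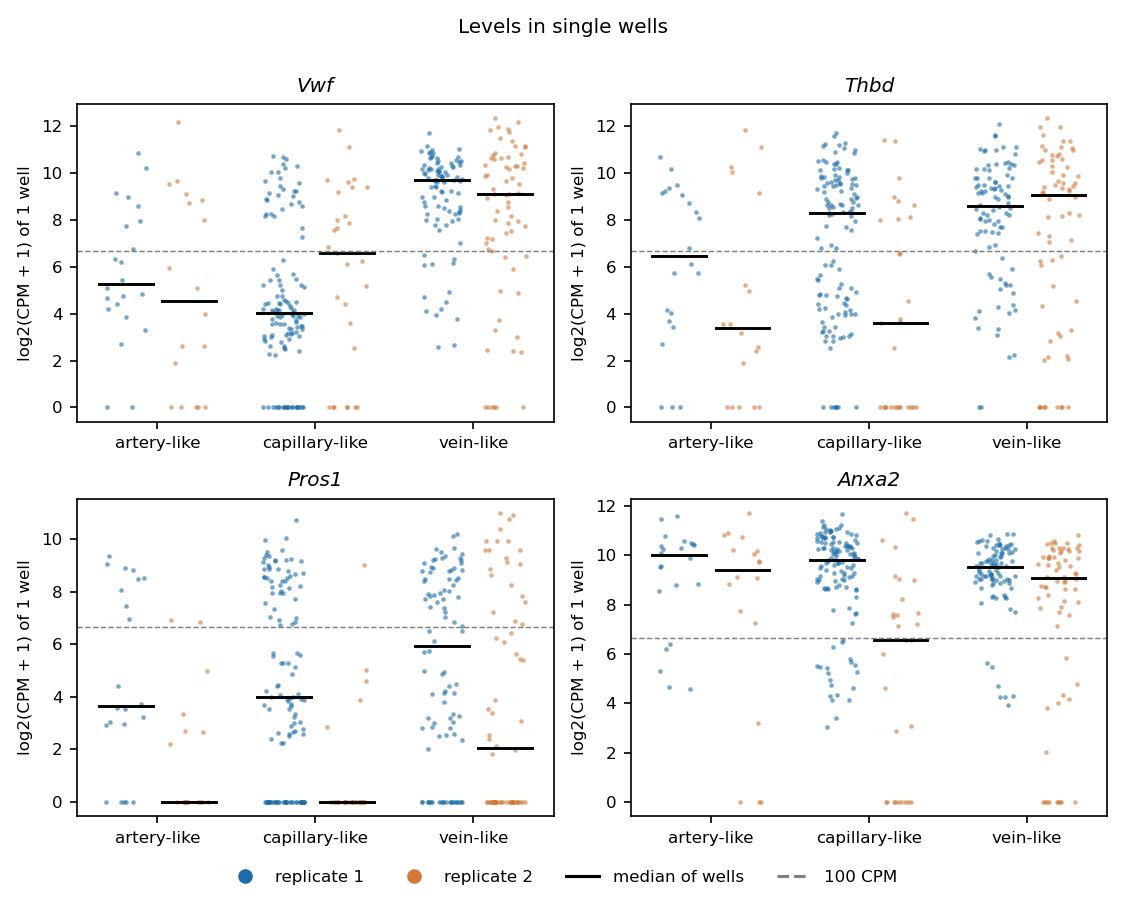
Levels of *Vwf*, *Thbd*, *Pros1* and *Anxa2* in single wells as log2(CPM + 1) (vertical axis), by class. Each point is a well, blue for replicate 1 and orange for replicate 2, black bars are medians over wells and the dashed line is 100 CPM. Median *Vwf* was 824 and 544 CPM in vein-like wells and 15.1 CPM in capillary-like wells of replicate 1, where wells gathered both above and below the dashed line.

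*Plat*, which encodes the tissue-type plasminogen activator (chr8:22757727-22782844, + strand, 13 merged exons), had no stable order. It was at 309 and 64.7 CPM per well in artery-like wells of replicates 1 and 2, at 69.9 and 53.5 CPM in capillary-like wells and at 74.3 and 161 CPM in vein-like wells. The artery-like wells were highest in replicate 1, and the vein-like wells in replicate 2. Artery-like minus vein-like was 1.03 on the log2 scale (SE 1.01, adjusted p = 0.887 in edgeR), and it was 2.59 without replicate 2 and -0.86 without replicate 1. Artery-like minus capillary-like was 1.54 (SE 0.97, adjusted p = 0.825). In capillary-like wells of replicate 2, 1 well held 89.2% of the *Plat* signal, and the mean was 5.99 CPM without it and 191 CPM with scran size factors. In artery-like wells of replicate 2, 1 well held 58.2%, and the mean without it was 28.7 CPM.

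*Plau*, which encodes the urokinase-type activator (chr14:20836660-20843385, + strand, 11 merged exons), was low in every class. Means were 9.73 and 36.5 CPM in artery-like, 16.8 and 59.1 CPM in capillary-like and 9.28 and 29.1 CPM in vein-like wells of replicates 1 and 2. The capillary-like value of replicate 2 rested on 28 reads, and it was 315 CPM with scran size factors and 14.7 CPM in the summed reads before TMM scaling. In artery-like wells of replicate 2, 1 well held 83.5%, and the mean without it was 6.40 CPM. In vein-like wells of replicate 2 the mean without the highest well was 17.7 CPM. No difference between the classes passed the threshold (log2 differences of -0.21 to 0.44, SE 1.97 to 2.03, adjusted p from 0.999 to 0.9997 in edgeR).

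The reads of *Plau* were spread in a way that its CPM hides. A read was present in 96.9% of all 768 wells of replicate 1, yet 601 wells had exactly 1 read and 93.8% had 1 to 5. In replicate 1 the share was nearly the same at every depth. It was 96.9% in the 192 wells with the fewest reads (median 73966 reads) and 96.4% in the 192 wells with the most (median 302020 reads), with a median of 1 *Plau* read in both. All 8 mural wells of replicate 1 had a *Plau* read too, 8 reads in all. Of all genes in the tables, 4 had 1 to 5 reads in at least 90% of wells of replicate 1, and *Plau* was one of them. The limits of 1 to 5 and of 12 reads were set after the values had been seen. In replicate 2, 63.2% of wells had a read and 61.2% had 1 to 5. The share there was 64.1%, 77.6%, 64.6% and 46.4% from the shallowest to the deepest 192 wells. A well with a single read of *Plau* was therefore not read as expressing it, and 12 or more reads occurred in 2.47% and 1.56% of wells.

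Low read numbers were also common for the other genes. *Vwf* had 1 to 5 reads in 291 wells of replicate 1, 6 to 11 reads in 35 and 12 or more in 387. *Tfpi* had 157, 9 and 120 wells in these ranges, and *Procr* 219, 13 and 178. Shares of wells with any read thus include many wells with 1 to 5 reads, which is why shares at 100 CPM or more are given above.

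**Figure D3:**
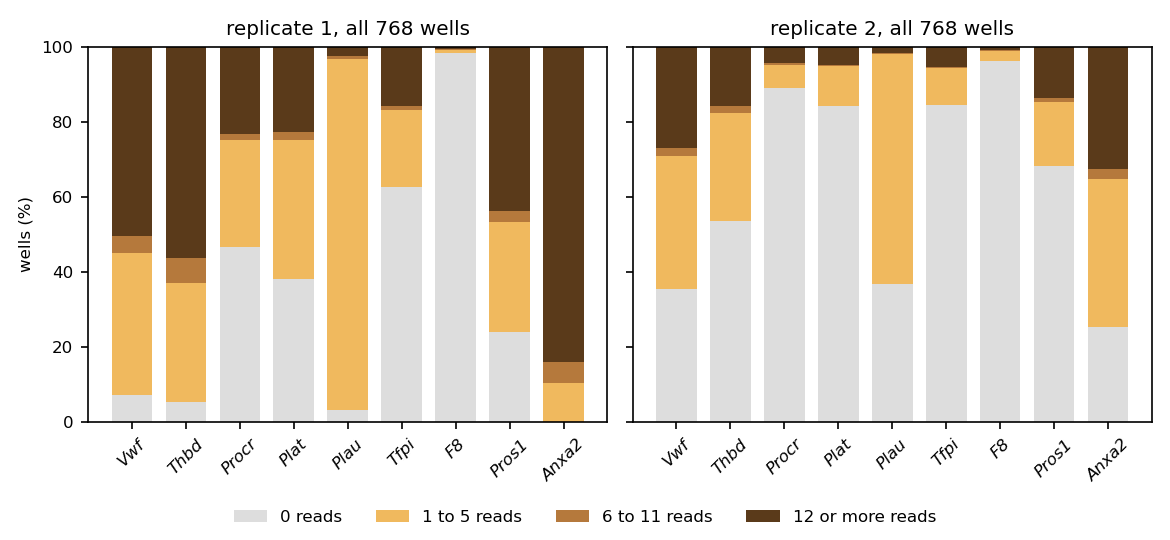
Share of all 768 wells of each replicate (vertical axis, %) with 0, 1 to 5, 6 to 11, or 12 or more reads of each gene. *Plau* stands out with 93.8% of wells of replicate 1 at 1 to 5 reads, and *F8* with 1.56% of wells holding any read.

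*Anxa2*, which encodes the plasminogen receptor annexin A2 (chr9:69453620-69491795, + strand, 15 merged exons), had a read in all 768 wells of replicate 1 and in 74.7% of those of replicate 2. It was at 1016 and 881 CPM per well in artery-like wells of replicates 1 and 2 (948 ± 94.8 CPM, SD, n = 2). In capillary-like wells it was at 977 and 425 CPM, and in vein-like wells at 792 and 626 CPM. The plate ranges overlapped. Artery-like minus vein-like was 0.51 on the log2 scale (SE 0.41, adjusted p = 0.836 in edgeR). The sums were at 1044 and 955 CPM in artery-like and 754 and 656 CPM in vein-like wells of replicates 1 and 2, so that the difference was larger than their spread and of like size in both replicates, but it did not pass the threshold. It was below 0 in 3 of 14 alternatives, at -0.066 with plate A only, -0.44 with the 300 CPM filter and -0.14 with classes from marker scores. Its exons share 98 bases with an antisense gene, and the sources used here do not say whether reads were counted by strand. *S100a10*, the light chain that pairs with annexin A2 at the cell surface, was at 206 to 363 CPM over the 6 sums.

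**Figure D4:**
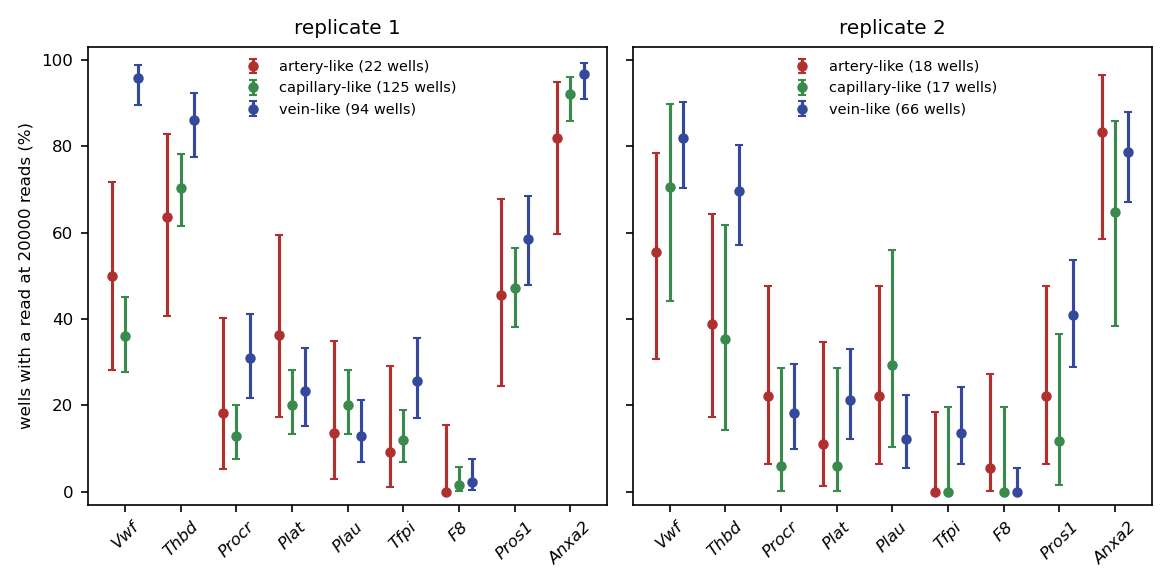
Share of wells with at least 1 read (vertical axis, %) after thinning every well to 20000 reads, with 95% exact binomial intervals for counting error, for replicate 1 (left) and replicate 2 (right). Red is artery-like, green capillary-like and blue vein-like, with the number of wells in the key. *Vwf* in vein-like wells of replicate 1 (95.7%) is clear of both other classes, whereas in replicate 2 the intervals overlap.

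Across the 14578 genes tested, 27 (0.185%) passed an adjusted p of 0.05 between artery-like and vein-like sums, 7 (0.048%) between artery-like and capillary-like sums and 6 (0.0412%) between capillary-like and vein-like sums. None of the 9 coagulation genes was among them in edgeR. At an unadjusted p under 0.05, 2 of the 9 (*Vwf* and *Pros1*, both higher in vein-like sums) passed between artery-like and vein-like, beside 7.38% of all genes and 6.09% higher in vein-like sums, and the same 2 passed between capillary-like and vein-like, beside 3.3% of all genes and 2.26% higher in vein-like sums. Between artery-like and capillary-like 0 of 9 passed, beside 5.32% of all genes. The median log2 difference of the 9 genes was -1.25 for artery-like minus vein-like, -0.51 for capillary-like minus vein-like and -0.21 for artery-like minus capillary-like. Over all tested genes these medians were -0.46, -0.30 and -0.25, and over the 2246 tested genes of at least 100 CPM they were 0.19, 0.13 and 0.05. Without the replicate block edgeR called 2 genes (0.0137%) between artery-like and vein-like and 0 in both other comparisons, none of them among the 9 and none of the 9 at an unadjusted p under 0.05. With limma on mean CPM per well 0 genes were called, and *Tfpi* (artery-like and vein-like), *F8* (artery-like and capillary-like) and *Procr* (capillary-like and vein-like) were at an unadjusted p under 0.05. DESeq2 on the same sums called 4.37%, 0.562% and 3.12% of genes between artery-like and vein-like, capillary-like and vein-like, and artery-like and capillary-like, in that order. The median dispersion of the sums, with the replicate in the model, was 1.11. The classes themselves were formed from other genes of the same wells, which these p-values do not take into account. With a dispersion of 1.11 and 2 residual degrees of freedom, a p that missed the threshold does not show that classes were alike.

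**Figure D5:**
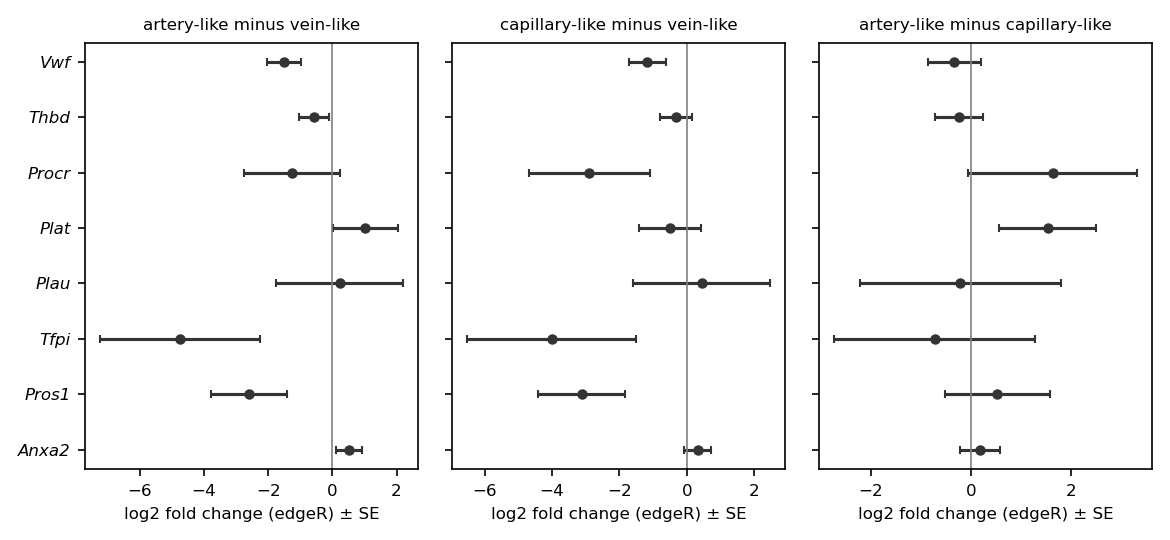
Log2 differences between summed classes from edgeR (horizontal axis) with standard errors for 8 of the 9 genes. *F8* is left out for its few reads. *Vwf* is at -1.51 and -1.18 against vein-like wells, and the error bars of *Tfpi* (SE 2.49) and *Plau* (SE 1.97) are the widest in the panel of artery-like minus vein-like.

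Per kilobase of exon, the only scale on which levels of different genes were set side by side, *Thbd* (206 ± 41.2 CPM per kb, SD, n = 2) and *Anxa2* (190.1 ± 31.4) led in vein-like wells and did not differ beyond their spread. *Vwf* (57.5 ± 7.88), *Pros1* (54.9 ± 5.55) and *Procr* (50.1 ± 9.94) formed a next set within 1 SD of each other on this scale. Exon length counts all annotated exons of a gene merged, 16.064 kb for *Vwf* and 6.241 kb for *Plat*. It can exceed the length of the transcript present in these cells, so the order of genes depends on it. *Plat* (18.9 ± 9.83), *Tfpi* (9.05 ± 0.687) and *Plau* (8.10 ± 5.92) followed, and *F8* (0.186 ± 0.182) was last. In artery-like wells *Anxa2* (254 ± 25.4) was above *Thbd* (109.8 ± 30.8), and *Plat*, *Procr*, *Vwf* and *Pros1* lay between 21.3 and 30.0 CPM per kb, within their spread. Capillary-like wells had *Anxa2* (188 ± 104.7) and *Thbd* (112 ± 45.6) at the top and *Pros1* (23.4 ± 26.1) and *Vwf* (18.4 ± 9.93) next.

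Most other genes of the pathways had too few reads to be tested, and none passed in edgeR. Of 56 further genes in 5 lists, 55 were in the tables and 27 had enough reads to be tested. In edgeR 0 of the 27 passed the adjusted threshold in any comparison. At an unadjusted p under 0.05 there were 3 between artery-like and vein-like, 5 between artery-like and capillary-like and 2 between capillary-like and vein-like, beside 7.38%, 5.32% and 3.3% of all genes. The DESeq2 Wald test called 2, 3 and 0 of them, beside 4.37%, 3.12% and 0.562% of all genes, and limma called 0.

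Of the procoagulant list 4 of 18 genes were tested, all of which act in the secretory pathway or vitamin K cycle rather than in plasma. *Mcfd2* and *Lman1*, the receptor pair that exports factors V and VIII from the endoplasmic reticulum, ranged over the 6 sums from 69.4 to 373 CPM and from 38.2 to 166 CPM. *Vkorc1* and *Ggcx*, which serve the carboxylation of protein S and of vitamin K dependent factors, were at 20.0 to 82.2 CPM and 0 to 163 CPM. Tissue factor (*F3*) was at most 1.23 CPM in any sum. Of 4 thrombin receptors *F2r* led with 5.55 to 138 CPM, *F2rl3* was at 0 to 19.4 CPM, and *F2rl1* and *F2rl2* were at most 1.75 CPM.

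Among the other anticoagulant genes *Entpd1* stood out. It encodes CD39, which degrades the platelet agonist ADP, and it was at 855 and 1467 CPM in artery-like sums, 839 and 1457 CPM in vein-like sums and 330.03 and 618 CPM in capillary-like sums of replicates 1 and 2. Capillary-like sums were lowest in both replicates. The log2 difference was 1.31 for artery-like minus capillary-like (SE 0.40, unadjusted p = 0.00371, adjusted p = 0.71 in edgeR) and -1.29 for capillary-like minus vein-like (SE 0.40, adjusted p = 0.926), neither past the threshold. *Hs3st1*, which makes antithrombin-binding heparan sulfate, was at 1.85 to 111 CPM, and *Tfpi2* and *Serpinc1* were at 0 to 15.4 and 0 to 4.98 CPM.

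Of the fibrinolysis list, *Plaur*, the receptor of urokinase, was at 11 to 109.7 CPM over the 6 sums. *Serpine2*, a serpin that inhibits plasminogen activators and thrombin, was at 6.37 to 123 CPM, and *Plgrkt*, a plasminogen receptor, at 6.78 to 86.2 CPM. The genes of von Willebrand factor storage and release were split. Of 11 tested, 6 were above 0 and 5 below 0 for artery-like minus vein-like, with a median of 0.13. Of their most abundant members, *Vamp3* (363 to 697 CPM), *Vamp8* (86.8 to 180 CPM) and *Cd63* (4.32 to 121 CPM) were not at an unadjusted p under 0.05 in edgeR.

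Genes at an unadjusted p under 0.05 were few, and those given here were picked with their values in view. Between artery-like and vein-like they included *Myrip* and *Hps6*, both higher in vein-like sums. *Myrip*, a Rab27a effector that links storage granules to actin, was at 18.9 and 24.4 CPM in vein-like sums of replicates 1 and 2, at 0 and 0.606 CPM in artery-like and at 3.72 and 1.23 CPM in capillary-like sums. *Hps6*, a subunit of a complex that forms lysosome-related organelles, was at 12.8 and 28.0 CPM in vein-like, 0 in both artery-like and 4.22 and 3.08 CPM in capillary-like sums. Both were low in level, both were higher in vein-like than in artery-like sums of each replicate, and both were the calls of DESeq2 for that comparison. Between artery-like and capillary-like the genes were *Tfpi2*, *Entpd1*, *Serpini1*, *Rab3d* and *Hps6*, and between capillary-like and vein-like they were *Entpd1* and *Rab3b*.

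Over the 12 sums of plate and class, the genes whose log2 CPM followed *Vwf* most closely were *St3gal6* (Pearson r = 0.909), *Lmna* (0.891) and *Grrp1* (0.882). For *Thbd* they were *Fbxo21* (0.941), *2010315B03Rik* (0.938) and *Tyms* (0.938), and for *Procr* they were *Rfxank* (0.981), *Usp15* (0.965) and *Larp7* (0.964). For *Plat* they were *Rassf1* (0.971), *1700022I11Rik* (0.958) and *Gm17134* (0.956), for *Pros1* *Cdk2* (0.98), *Cox10* (0.972) and *Stxbp3* (0.969), and for *Anxa2* *Loxl3* (0.968), *Ppp2r3c* (0.947) and *Lgals9* (0.947). Sums of a plate share depth and mice and genes were picked as the closest of 14578, so these values are descriptions.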

How the data were processed

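The authors aligned 50-base single reads to mm10 (GRCm38) with TopHat2 2.1.1, removed duplicates with SAMtools 0.1.18 and deposited whole-number read counts per gene and well, made with featureCounts of Subread 1.4.6-p5. Per the labels there were 2 replicates of 2 plates of 384 wells. The deposited counts were not normalized, and plates held 31864976 to 74739095 reads.

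Wells with at least 600 counts, 500 to 8000 genes, reads of 2 or more genes among *Kdr*, *Pecam1* and *Cdh5*, and less than 100 CPM of *Pdgfrb*, *Kcnj8*, *Lyve1*, *Prox1* and *Ptprc* each were kept. They were clustered with scran 1.30.0 size factors, 1000 variable genes, 15 principal components and leidenalg 0.10.2 at resolution 0.6. Clusters were named by the marker list that led in number of markers raised by 1.25 times or more over other wells. Classes rebuilt in this way may differ from those of the study. A single cell was sorted per well and no doublet caller was run.

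Counts were summed per replicate and class (6 sums) and tested with edgeR 4.0.16 (TMM, quasi-likelihood, replicate as block, at least 10 counts in 2 sums, Benjamini-Hochberg over 14578 genes, threshold 0.05). All classes of 1 replicate share their mice, and their deviations from the class means correlated at 0.0981 to 0.123. DESeq2 1.42.0 and limma 3.58.1 (log2 of CPM with a pseudocount of 1) were alternatives. In simulated data with the dispersion of the sums, the edgeR fit recovered no gene changed 2, 4 or 8 times between artery-like and vein-like. Shares have 95% exact binomial intervals. Exon lengths and positions are from GENCODE vM21 and promoters from RefSeq.

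The genes and lists were chosen with earlier results of these data known. Named beside the 9 genes were the 4 most abundant genes of each list, any past the threshold, and for genes of at least 50 CPM the 3 most correlated genes. Reads per well, the 100 CPM share, means without the highest well and the split by dissociation genes were chosen after seeing the data. A few list genes that this rule or the tests would name are not reported here.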

Additional observations from a re-analysis of the deposited data

Results flagged for a closer look

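Over the 4 plates of each class, 4 of 27 gene and class groups had a plate apart from the other 3 by Dixon's criterion. Its rate by chance, about 1 of 20 groups, assumes normal values. These means cannot fall below 0, and a group with 3 plates at 0 and 1 above always passes. The count is therefore a description and shows no excess over chance. *Plau* in artery-like wells was at 45.76 CPM on plate B of replicate 2 and at 4.183 to 10.8 CPM on the other plates, with 83.5% of the artery-like sum of that replicate in 1 well. *Plau* in capillary-like wells was at 90.18 CPM on the same plate and at 8.207 to 19.66 CPM on the others. *Tfpi* in artery-like wells was at 17.86 CPM on plate B of replicate 1 and at 0 to 2.814 CPM on the others, with 57.7% of that replicate's sum in 1 well. *F8* in artery-like wells was at 0.3691 CPM on plate B of replicate 2 and at 0 on the others, a difference of 1 read.

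Wells outside the 3 classes held further signal. *Tfpi* averaged 182.7 CPM over the 2 replicates of mural wells (75.28 and 290.1 CPM), against 46.77 and 52.08 CPM in vein-like wells, the highest of the classes. In replicate 1, 1 mural well held 91.0% of the sum, and without it the mean was 7.78 CPM, below vein-like wells. *F8* averaged 12.94 CPM in kept wells without a vessel name (3.793 and 22.08 CPM), of which 1 well held 100% of the sum in replicate 1 and 79.9% in replicate 2.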

How the results depend on the processing

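*Vwf*, *Tfpi*, *Pros1*, *Procr* and *Thbd* kept a negative log2 difference of artery-like minus vein-like in 14 of 14 alternatives with a test, *Vwf* between -1.97 and -0.55 with adjusted p from 0.208 to 0.935. None was called in edgeR or limma under any of them. With 2 replicates, few reads of *F8*, *Plau*, *Procr* and *Tfpi* and shallow capillary-like wells in replicate 2, the size of a difference is poorly known. The median over all genes tested moved from -0.46 (artery-like minus vein-like) to -2.16 with plate A only and to 0.02 with the filter on non-BEC genes at 300 CPM. Of the 54 mean levels (9 genes, 3 classes and 2 replicates), 20 moved by more than the spread between replicates with the 300 CPM filter, 7 with scran size factors, 6 of them in capillary-like wells of replicate 2, and 15 when the highest well was left out, an alternative chosen after seeing the data. The filter at 10 CPM left 18 and 229 wells and gave no set with all 3 classes in both replicates, so it has no value. A fit without 1 replicate has no residual degrees of freedom and gave values without a test. The cause of the changes below was not tested.

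The numbers of genes past the threshold, 27 (artery-like against vein-like), 7 (artery-like against capillary-like), 6 (capillary-like against vein-like) and 31 (any difference), are followed here in this order. They were 637, 455, 82 and 112 with DESeq2, and 66, 44, 43 and 118 without the low-count filter. They were 2, 0, 0 and 2 without the replicate block, with 988 and 434 genes at an unadjusted p under 0.05 in the comparisons at 0. They were 0 in all 4 with limma on mean CPM per well, with 1374, 1078, 562 and 1084 genes at an unadjusted p under 0.05. With sums per plate they were 10, 5, 10 and 24, with plate A only 15, 10, 19 and 29, and with plate B only 40, 20, 12 and 57. The filter at 300 CPM gave 0, 0, 0 and 3 (798, 534, 716 and 674 unadjusted in edgeR), and classes from marker scores gave 0 in all 4 (768, 759, 761 and 781 unadjusted). The next higher resolution gave 12, 1, 6 and 19, thinning to 20000 reads gave 59, 31, 36 and 108, and asking for all 3 BEC genes gave 39, 12, 29 and 64. Vein-like wells low in dissociation genes, an alternative chosen after seeing the data, gave 8, 3, 3 and 18.

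The 27 log2 differences (9 genes in 3 comparisons) gave 423 values under the alternatives, of which 48 had the opposite sign. For artery-like minus vein-like, *Plau* was at -0.45 with sums per plate, -1.43 with plate A only, -0.12 with the 300 CPM filter, -1.49 with marker scores and -0.034 with thinned wells. *Anxa2* was at -0.066 with plate A only, -0.44 with the 300 CPM filter and -0.14 with marker scores. *Plat* was at -0.14 with plate A only, and between -0.86 and 2.59 with 1 replicate left out.

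For artery-like minus capillary-like, *Vwf* was at 0.28 with limma, 1.66 with the 300 CPM filter, 0.69 with marker scores, 0.054 at the next higher resolution and 0.77 with all 3 BEC genes, and between -0.81 and 0.40 with 1 replicate left out. *Thbd* was at 0.23 with plate B only, 0.67 with marker scores and 0.48 with all 3 BEC genes, and between -0.43 and 0.0083 with 1 replicate left out. *Pros1* was at -0.21 with limma, -1.13 with plate A only and -0.32 with marker scores. *Tfpi* was at 0.59 with plate B only and 1.68 with the 300 CPM filter, and between -0.88 and 0.018 with 1 replicate left out. *Anxa2* was at -0.15 with plate A only, -0.90 with the 300 CPM filter, -0.049 with marker scores and -0.029 at the next higher resolution. *Plau* was at 0.11 without the replicate block, 0.29 with the 300 CPM filter and 0.025 at the next higher resolution, and between -0.86 and 0.67 with 1 replicate left out, and *Procr* was at -0.17 with the 300 CPM filter.

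For capillary-like minus vein-like, *Plau* was at -0.13 with plate A only, -0.41 with the 300 CPM filter and -1.33 with marker scores, and between -0.57 and 1.23 with 1 replicate left out. *Plat* was at 0.16 with plate B only and 0.40 with marker scores, and between -0.92 and 0.16 with 1 replicate left out. *Anxa2* was at -0.13 with limma and -0.088 with marker scores, and *Thbd* at 0.047 at the next higher resolution. *F8* was at -0.41 with all 3 BEC genes and -0.32 with vein-like wells low in dissociation genes, and between -0.056 and 1.03 with 1 replicate left out.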

Other observations

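Several of the genes were also present in wells that were not blood endothelial. In mural wells (8 in replicate 1 and 38 in replicate 2), *Pros1* was at 199 and 264 CPM, *Procr* at 155 and 100.6 CPM and *Anxa2* at 667 and 761 CPM. *Vwf* was at 189.8 and 4.92 CPM there, and 1 well held 95.1% of the value of replicate 1. In lymphatic wells (15 and 124), *Pros1* was at 369.7 and 186 CPM, *Thbd* at 264 and 87.5 CPM, *Tfpi* at 56.8 and 40.6 CPM and *Vwf* at 22.2 and 78.1 CPM. Without the highest well of each group, *Thbd* was at 169 and 65.9 CPM and *Tfpi* at 36.4 and 23.2 CPM there. By mean per well, *Pros1* in lymphatic wells of replicate 1 was above the 208 CPM of vein-like wells, but 221 CPM without 1 well that held 44.1%. In replicate 2 it was below their 240.4 CPM. The order of replicate 2 turned with the scale. In reads summed over wells *Pros1* was at 332 and 325 CPM in lymphatic wells, above the 214 and 271 CPM of vein-like wells. In replicate 1, 1 mural well held 66.3% of *Pros1* and 1 held 52.5% of *Procr*, with means of 76.7 and 84.2 CPM without them. Few wells stand behind the means of replicate 1, and no test was made.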
